A study of Mus musculus with 6 samples.

Results

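The 35 genes described here belong to the transcriptional response to low oxygen and to glycolysis. They were taken by name from a list and all 35 were found among the 22547 gene rows of a single-cell RNA-seq count table of mouse mammary tumours. The list holds 16 glycolytic enzyme genes, 5 genes for sugar and lactate transport or for regulation of the pathway (Slc2a1, Slc2a3, Slc16a3, Pfkfb3 and Pdk1) and 14 hypoxia response genes. Of the 35, 33 had at least 20 unique molecular identifiers (UMIs, tags that count single transcripts) over the Recurrent and Primary epithelial-like cells. Car9 and Slc2a3 were the others, with at most 10 UMIs in any epithelial-like library.

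The tumours carried MMTV-Wnt1, a Wnt1 transgene under a promoter active in mammary epithelium, together with an FGF receptor construct that the labels write iFGRR. They were transplanted into FVB mice of the strain FVB.rGH-Luc-GFP. Mice received the dimerizer B/B, which switches the receptor on, until the tumours grew without it. The FGFR inhibitor NVP-BGJ398 was then given for 14 days and stopped for 14 days, after which residual tissue was taken or mice were left for recurrence. The Primary library (MMTV-Wnt1/iFGRR2) came from mice aged 8 to 10 weeks, the Dormant library (MMTV-Wnt1/iFGRR1) from mice aged 10 to 12 weeks, the Long-term dormant library (MMTV-Wnt1/iFGRR4) from mice aged 32 to 34 weeks and the Recurrent library (MMTV-Wnt1/iFGRR3) from mice aged 20 to 22 weeks. The labels do not state at which point of this schedule Primary tumours were taken, nor whether tissue of several mice was pooled. Cells of all 4 stages had been frozen, thawed and sorted as live by DAPI before capture with the version 2 Chromium 3′ kit, and age differs with stage. There was 1 library per stage, so stage comparisons had no replicate and no test; the 95% intervals given with them cover counting error only.

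When oxygen is plentiful, prolyl hydroxylases encoded by the Egln genes mark the HIF alpha subunits for destruction by the VHL ubiquitin ligase. When oxygen falls, the alpha subunit encoded by Hif1a accumulates, pairs with ARNT and binds short DNA elements near target genes. Classical targets raise glucose uptake and glycolysis, export lactate, restrain pyruvate entry into mitochondria, signal to vessels and remove mitochondria. HIF activity is controlled mostly at the protein level, which RNA counts do not show. Many tumours and activated macrophages also run glycolysis at a high rate in the presence of oxygen.

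The core of the HIF binding element is written ACGTG or GCGTG, and both were searched on both strands in RefSeq promoter windows of GRCm38.p6, each covering 250 bases before to 50 bases after a gene's start. Windows were found for 32 of the 35 genes, 31 by symbol and 1 by synonym (Ero1l, listed as Ero1a); Slc2a3, Bnip3l and Ndrg1 had no match. The 6 windows below belong to genes to which the results below return (mitophagy, protein folding, glycolysis and lactate export), with Tpi1 as a glycolytic gene that holds neither motif. Capitals mark ACGTG or GCGTG on either strand, so that a match on the other strand reads CACGT or CACGC.

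Tpi1: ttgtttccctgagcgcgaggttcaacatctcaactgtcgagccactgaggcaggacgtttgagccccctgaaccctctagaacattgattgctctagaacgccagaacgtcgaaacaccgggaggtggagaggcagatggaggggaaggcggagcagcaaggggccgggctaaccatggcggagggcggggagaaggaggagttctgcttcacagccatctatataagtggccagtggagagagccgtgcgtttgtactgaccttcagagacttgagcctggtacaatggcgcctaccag
Pgk1: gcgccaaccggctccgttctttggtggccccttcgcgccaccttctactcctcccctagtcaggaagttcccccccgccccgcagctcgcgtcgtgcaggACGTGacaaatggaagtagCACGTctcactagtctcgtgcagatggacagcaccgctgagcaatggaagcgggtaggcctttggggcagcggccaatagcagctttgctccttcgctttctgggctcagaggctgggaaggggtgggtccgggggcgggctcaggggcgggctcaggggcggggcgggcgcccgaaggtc
Ldha: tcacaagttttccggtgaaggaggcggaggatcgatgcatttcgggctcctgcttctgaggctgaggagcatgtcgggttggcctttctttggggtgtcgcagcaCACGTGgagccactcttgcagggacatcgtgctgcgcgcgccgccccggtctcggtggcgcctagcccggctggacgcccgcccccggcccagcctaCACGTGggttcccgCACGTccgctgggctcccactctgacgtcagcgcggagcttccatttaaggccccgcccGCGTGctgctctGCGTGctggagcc
Slc16a3: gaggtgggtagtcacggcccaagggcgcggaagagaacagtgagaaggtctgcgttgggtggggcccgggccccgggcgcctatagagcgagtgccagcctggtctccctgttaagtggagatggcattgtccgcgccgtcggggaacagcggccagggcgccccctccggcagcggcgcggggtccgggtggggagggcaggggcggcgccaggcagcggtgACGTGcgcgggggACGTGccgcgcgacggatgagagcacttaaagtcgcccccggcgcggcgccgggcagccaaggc
Bnip3: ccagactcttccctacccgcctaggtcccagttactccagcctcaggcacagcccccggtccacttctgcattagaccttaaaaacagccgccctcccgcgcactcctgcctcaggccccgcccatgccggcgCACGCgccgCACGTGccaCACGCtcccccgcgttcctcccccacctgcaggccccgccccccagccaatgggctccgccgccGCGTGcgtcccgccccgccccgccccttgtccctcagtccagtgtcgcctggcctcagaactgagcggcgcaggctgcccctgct
Ero1l: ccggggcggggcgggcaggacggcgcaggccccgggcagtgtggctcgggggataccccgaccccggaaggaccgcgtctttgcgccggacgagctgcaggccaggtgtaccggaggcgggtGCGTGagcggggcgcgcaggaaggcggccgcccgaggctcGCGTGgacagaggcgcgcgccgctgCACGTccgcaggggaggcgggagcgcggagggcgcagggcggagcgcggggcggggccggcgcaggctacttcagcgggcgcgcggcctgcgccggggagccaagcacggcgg

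The Bnip3 window lies at chr7:138909457-138909756 on the minus strand. It holds 1 ACGTG on each strand at 107 and 108 bases before the start, which overlap as a palindrome, and 3 GCGTG matches. The Ldha window, the first of 2 for that gene, lies at chr7:46845554-46845853 on the plus strand with 5 ACGTG matches, of which 4 form 2 overlapping pairs, and 2 GCGTG matches. The Pgk1 window (chrX:106186850-106187149, plus strand) holds ACGTG at 150 bases and, on the other strand, at 131 bases before the start. The Slc16a3 window (chr11:120948817-120949116, plus strand) holds ACGTG at 27 and 14 bases before the start. The Ero1l window (chr14:45318523-45318822, minus strand) holds 1 ACGTG and 2 GCGTG, and the Tpi1 window (chr6:124814109-124814408, minus strand) holds none. Over all members, 26 of 46 windows (56.5%) held ACGTG, against 6447 of 32851 windows of all genes (19.6%). GCGTG stood in 54.3% of the member windows and in 32.4% of all windows. Counted by gene, 23 of 32 members (71.9%) held ACGTG in a window, against 21.8% of the 27025 genes in the table, and 4 members held neither motif. These matches describe letters only, and the list is made of well-known HIF targets.

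Cells were assigned to classes from fixed marker genes after clustering that left the 35 genes and 2 related lists out. After filtering, 4275 Primary, 3276 Dormant, 5867 Long-term dormant and 4628 Recurrent cells were used, and pairs of libraries shared 26 to 50 cell barcodes, under 1% of the smaller library. Epithelial-like cells numbered 2105, 304, 162 and 2657 in this order of stages, macrophage- or monocyte-like cells 1260, 207, 1222 and 1270, and fibroblast-like cells 7, 300, 2898 and 104. The Primary library's fibroblast-like cells were too few to use. The eGFP transcript, counted as a gene of its own, was present in 99.7% of Primary, 85.5% of Dormant, 1.85% of Long-term dormant and 98.9% of Recurrent epithelial-like cells. Only 3 of the 162 Long-term dormant epithelial-like cells had an eGFP UMI, so these cells lacked the transcript that nearly all Primary and Recurrent epithelial-like cells carried. Between 817746 and 28558544 UMIs stood behind each epithelial-like library, 979349 to 9830857 behind each macrophage-like library and 744633 to 11254772 behind each fibroblast-like library.

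Summed over the 35 genes, epithelial-like cells held 7177 CPM in the Primary, 4251 in the Dormant, 2844 in the Long-term dormant and 6784 in the Recurrent library, where CPM are the UMIs of the list scaled to a total of 1000000 UMIs for that class and library. Macrophage-like cells held 11232, 6960, 3932 and 8599 CPM in the same order of stages. Fibroblast-like cells held 3827 in the Dormant, 2537 in the Long-term dormant and 3700 in the Recurrent library. In all 3 classes the Long-term dormant library had the lowest sum. In epithelial-like and macrophage-like cells the Dormant sum lay below both the Primary and the Recurrent sum.

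**Figure D1:**
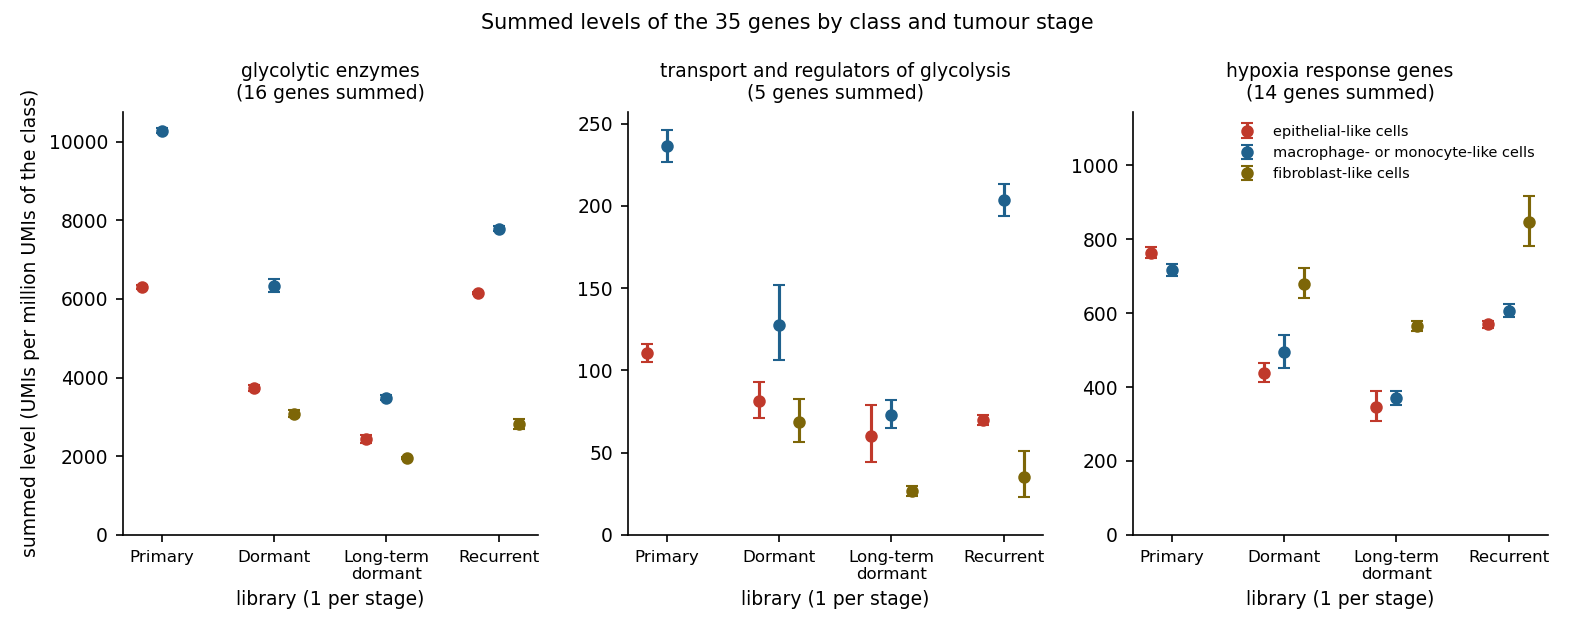
Summed level of the 16 glycolytic enzyme genes, the 5 transport and regulator genes and the 14 hypoxia response genes (y axis, CPM, scaled within the class and library, linear from 0) in each stage library (x axis), for epithelial-like, macrophage- or monocyte-like and fibroblast-like cells; bars are exact 95% counting intervals. Glycolytic enzymes were at 6304 and 6145 CPM in Primary and Recurrent epithelial-like cells, with 3731 in Dormant ones, whereas hypoxia response genes were highest in Recurrent fibroblast-like cells at 847.

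In Dormant against Primary epithelial-like cells, 14 of the 32 members with 20 or more UMIs in these libraries together were at least 2-fold lower and none was 2-fold higher. Over all 11644 genes with as many UMIs, 10.1% were at least 2-fold lower and 13.0% at least 2-fold higher. The median log2 ratio of the members, Dormant over Primary, was -0.85, beside -0.07 over all genes. By role, 6 of 15 glycolytic enzymes, 1 of 4 transport and regulator genes and 7 of 13 hypoxia response genes passed the 2-fold mark, all lower in Dormant cells. The medians of these roles were -0.91, -0.40 and -1.12 in this order. Counting intervals lay below 0 for 14 of 15, 2 of 4 and 9 of 13, which depends on UMI number as well as on the ratio. Differences among roles were not tested.

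Bnip3 encodes a receptor on the mitochondrial surface that directs mitochondria to autophagy. It had 65.4 CPM in Primary, 10.1 CPM in Dormant, 14.7 CPM in Long-term dormant and 48.1 CPM in Recurrent epithelial-like cells. The Dormant over Primary log2 ratio was -2.67 (95% interval -3.30 to -2.14), the most negative of the list, on 27 Dormant and 929 Primary UMIs. Its relative Bnip3l, another mitophagy receptor, was at 120 CPM in Dormant and 208 in Primary cells, a log2 ratio of -0.79. Bnip3 therefore made up 7.78% of the summed UMIs of the pair in Dormant cells (95% exact binomial interval 5.19 to 11.1) and 23.9% in Primary cells (22.6 to 25.3).

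Ero1l encodes the oxidase that drives disulphide bond formation in the endoplasmic reticulum, and was at 63.3 CPM in Primary, 14.6 CPM in Dormant, 8.56 CPM in Long-term dormant and 60.6 CPM in Recurrent epithelial-like cells. Primary and Recurrent cells were close together, and Dormant cells were lower than Primary by a log2 ratio of -2.10 (-2.62 to -1.65). Egln3, one of the HIF prolyl hydroxylases and itself a HIF target, had 72.6, 21.0, 11.0 and 27.2 CPM in the same order, so that the Recurrent library lay near the Dormant one (Dormant over Primary log2 ratio -1.78, -2.20 to -1.40). Egln1, the main oxygen-sensing hydroxylase, was 6.75 in Dormant and 17.8 in Primary cells. Ankrd37, a small ankyrin-repeat gene that HIF induces, was at 13.9 CPM in Dormant and 34.9 in Primary cells, and P4ha2, a collagen prolyl hydroxylase subunit, at 3.75 and 8.52.

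Car12 encodes a membrane carbonic anhydrase that handles acid at the cell surface, and was at 74.3 CPM in Primary, 33.7 CPM in Dormant, 11.0 CPM in Long-term dormant and 17.9 CPM in Recurrent epithelial-like cells. Primary cells were the highest and the Recurrent library lay below the Dormant one. Its relative Car9, a textbook hypoxia marker, was nearly undetected: 10 UMIs in Primary, 5 in Recurrent and none in Dormant or Long-term dormant epithelial-like cells, where a count of 0 allows up to 1.12 and 3.67 CPM.

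Other hypoxia response genes differed less. Vegfa, the growth factor for blood vessels, was at 51.4 CPM in Dormant and 46.2 in Primary epithelial-like cells (log2 ratio 0.16, -0.12 to 0.42). Adm, which encodes the vasodilator peptide adrenomedullin, was at 36.4 in Dormant and 26.6 in Primary cells (0.46, 0.12 to 0.78). P4ha1, the commonest collagen prolyl hydroxylase subunit, was at 24.7 and 20.6, and Hif1a itself at 49.5 and 61.7 (-0.31, -0.59 to -0.05). These 4 genes differed by less than 2-fold over the whole class. In cluster 1 alone, a luminal-like cluster with 65 Dormant and 1350 Primary cells, Vegfa was at 14.1 CPM in Dormant and 55.6 in Primary cells (-1.92, -2.99 to -1.12) and P4ha1 at 5.13 and 16.0 (-1.48, -3.54 to -0.25), on 11 and 4 Dormant UMIs. Adm was at 19.2 in Dormant and 29.4 in Primary cells there (-0.57, -1.47 to 0.14), and Hif1a at 44.9 and 43.6. In cluster 18, a basal-like cluster of 171 Dormant cells, Vegfa was at 87.4 CPM, P4ha1 at 45.2 and Adm at 52.8. Ndrg1, a stress-induced gene linked to differentiation, was also close, at 52.9 CPM in Dormant and 62.4 in Primary cells.

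The glycolytic enzymes did not differ by equal amounts. Pgk1, the first enzyme of the pathway to make ATP, was at 446 CPM in Primary, 140 CPM in Dormant, 94.2 CPM in Long-term dormant and 288 CPM in Recurrent epithelial-like cells, a Dormant over Primary log2 ratio of -1.67 (-1.83 to -1.52). Tpi1, which interconverts the triose phosphates, was at 404, 152, 171 and 337, and Aldoa, the main aldolase, at 886, 398, 308 and 950. Both dormant libraries were below the Primary and the Recurrent library for these 3 genes. Hk1, the housekeeping hexokinase, was at 24.0 CPM in Dormant and 60.1 in Primary cells, whereas Hk2, the inducible hexokinase, was at 36.0 and 47.7. Of the phosphofructokinase genes, which set the committed step, Pfkl was at 67.1 in Dormant and 140 in Primary cells, Pfkp at 12.0 and 29.8, and Pfkm at 8.25 and 7.40.

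Pkm and Ldha, at the end of the pathway, were closer. Pkm, the pyruvate kinase of most tissues, was at 464 CPM in Dormant and 532 in Primary epithelial-like cells (-0.20, -0.29 to -0.11), and Ldha, which turns pyruvate into lactate, at 451 and 623 (-0.47, -0.55 to -0.38). Gapdh was at 1092 in Dormant and 1535 in Primary cells, and Eno1, the main enolase, at 491 and 976 (-0.99, -1.07 to -0.91), just inside the 2-fold mark; Pfkl, at -1.05, was just past it. Gapdh, Eno1, Pgk1, Ldha, Aldoa and Tpi1 have near-identical copies elsewhere in the mouse genome, and how shared reads were assigned is not given in the sources used here. Among the transport and regulator genes, Slc16a3, the lactate exporter of glycolytic cells, had 9 UMIs in Dormant and 199 in Primary cells, or 3.37 and 14.0 CPM. Slc2a1, the general glucose importer, was at 46.1 and 60.02, Pdk1, a kinase that blocks pyruvate dehydrogenase, at 21.7 and 23.7, and Pfkfb3, which makes the activator of phosphofructokinase, at 9.37 and 12.8.

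**Figure D2:**
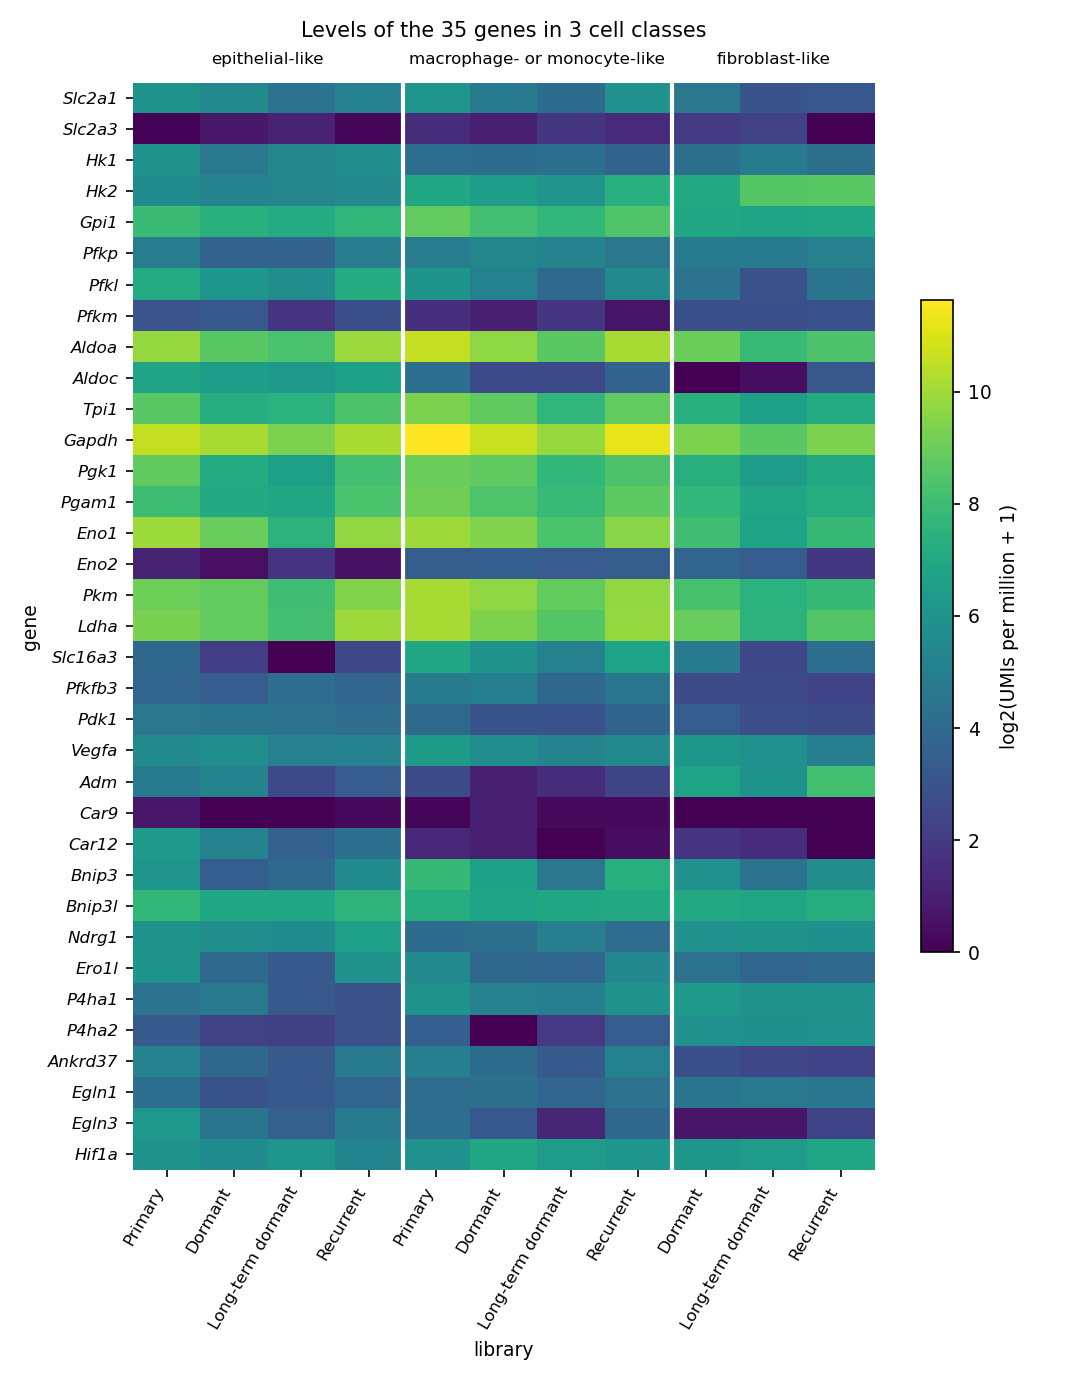
Level of each of the 35 genes (rows) in epithelial-like, macrophage- or monocyte-like and fibroblast-like cells of each library (columns), coloured by log2(CPM + 1). Gapdh and Aldoa are brightest in Primary and Recurrent macrophage-like cells, and Car9 and Slc2a3 are dark throughout.

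Several measures moved alongside the epithelial difference. The Dormant epithelial-like cells were 40.8% luminal-like and the Primary ones 79.0%, and the clusters that held most cells were clusters 18 and 1 in the Dormant library and clusters 1 and 11 in the Primary library. The median ratio was -0.98 in luminal-like clusters alone, -0.83 in basal-like clusters alone and -0.88 in cells with an eGFP UMI alone. Over all genes these medians were -0.01, -0.21 and -0.07 in the same order. The basal-like value compares different clusters. Of the Dormant basal-like cells 171 of 180 stood in cluster 18, and of the Primary ones 436 of 441 stood in cluster 11. Within cluster 1, a luminal-like cluster led by Aqp5, 65 Dormant and 1350 Primary cells gave a median of -1.06 with 17 of 32 members at least 2-fold lower and none higher, against 11.8% and 10.6% of 10168 genes in that cluster. There Bnip3 was at 1.28 CPM in Dormant and 79.1 in Primary cells, on 1 and 628 UMIs. Dissociation stress genes summed to 14164 CPM in Dormant and 10344 in Primary epithelial-like cells, proliferation genes to 346 and 578, and the 17 macrophage markers, none of them at 0, to 1916 and 1761. Bnip3, Slc16a3 and P4ha2 were over 5 times higher in another class of at least 1 of the 2 libraries, a possible source of free RNA. The part of these measures in the difference was not tested.

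In Recurrent against Dormant epithelial-like cells, 10 of 32 members were at least 2-fold higher and 2 at least 2-fold lower, with 10.3% and 17.9% of 11934 genes in these directions. The member median was 0.61, beside -0.05 over all genes. This comparison uses the same Dormant library as the one above, so the 2 sets of ratios are not independent. The 10 genes were Bnip3, Ero1l, Aldoa, Pfkp, Pgam1, Tpi1, Pfkl, Hk1, Ldha and Pgk1, with log2 ratios from 1.04 for Pgk1 to 2.22 for Bnip3. Ldha was at 961 CPM in Recurrent and 451 in Dormant cells, the Recurrent level being the highest of the 4 libraries. Pgam1, which moves the phosphate group ahead of enolase, was at 320 CPM in Recurrent and 139 in Dormant cells. The 2 genes on the other side were P4ha1, at 6.30 CPM in Recurrent and 24.7 in Dormant cells (-1.98, -2.39 to -1.54), and Adm, at 9.49 and 36.4 (-1.94, -2.28 to -1.59). Both were over 5 times higher in another class of 1 of these libraries, and the 12 fibroblast markers, none of them at 0, summed to 18.8 CPM in Recurrent and 464 CPM in Dormant epithelial-like cells; their part in the result was not tested. Recurrent epithelial-like cells were 99.4% luminal-like, against 40.8% of Dormant ones, and cluster 18 held no Recurrent cell. In cluster 1 alone, with 478 Recurrent and 65 Dormant cells, P4ha1 lay on the other side of 0, at 16.4 CPM in Recurrent and 5.13 in Dormant cells (1.52, 0.23 to 3.61), and Adm was at 29.3 and 19.2 (0.57, -0.19 to 1.51). There 17 of 32 members were at least 2-fold higher in Recurrent cells and none lower, against 11.0% and 9.16% of 8536 genes, with a median of 1.19 beside 0.05.

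In Recurrent against Primary epithelial-like cells, 6 of 33 members were at least 2-fold lower and none higher, against 12.1% and 5.26% of 12170 genes, and the median was -0.28 beside -0.09. The 6 were Car12 (-2.06, -2.21 to -1.90), P4ha1, Slc16a3, Adm, Egln3 and Eno2. Slc16a3 was at 4.76 CPM in Recurrent and 14.0 in Primary cells. Eno2, the enolase of neurons, rested on 13 Recurrent and 17 Primary UMIs. Glycolytic enzymes were closer: 15 of 16 were within 2-fold, Ldha was at a log2 ratio of 0.62 (0.59 to 0.66), Pkm at 0.37 and Pgk1 at -0.63 (-0.68 to -0.58). The sign of this comparison depended on which cells were compared: in cluster 1 alone, with 478 Recurrent and 1350 Primary cells, the median was 0.23 and Bnip3 was at 150 CPM in Recurrent and 79.1 in Primary cells. Most Recurrent epithelial-like cells stood in cluster 0, led by Klk10 and Ltf, where Bnip3 was at 38.7 CPM and which held 34 Primary cells.

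In Long-term dormant against Dormant epithelial-like cells, 6 of 30 members were at least 2-fold lower and none higher, against 11.5% and 7.21% of 9134 genes, with a median of -0.37 beside -0.01. The 6 were Adm (-2.73, -4.80 to -1.49), Car12, Eno1, Pfkm, P4ha1 and Slc2a1. Eno1 was at 176 CPM in Long-term dormant and 491 in Dormant cells. Hk1 lay the other way, at 40.4 and 24.0. The 12 fibroblast markers summed to 1037 CPM in Long-term dormant and 464 CPM in Dormant epithelial-like cells, the 10 T-cell markers, 2 of them at 0 in the Long-term dormant library, to 40.4 and 413 CPM, and dissociation stress genes to 8912 and 14164 CPM. Luminal-like cells were 66.7% of the Long-term dormant and 40.8% of the Dormant ones, and cluster 20 held 66 of 162 Long-term dormant and 49 of 304 Dormant cells. In cluster 18 alone, with 51 Long-term dormant and 171 Dormant cells, the median was -0.46 beside 0.05, and 8 of 26 members were at least 2-fold lower, against 13.6% of 6142 genes. The part of these measures in the differences was not tested. With eGFP in 1.85% and 85.5% of these cells, a difference of stage and a difference between eGFP-carrying and other epithelium cannot be told apart here.

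**Figure D3:**
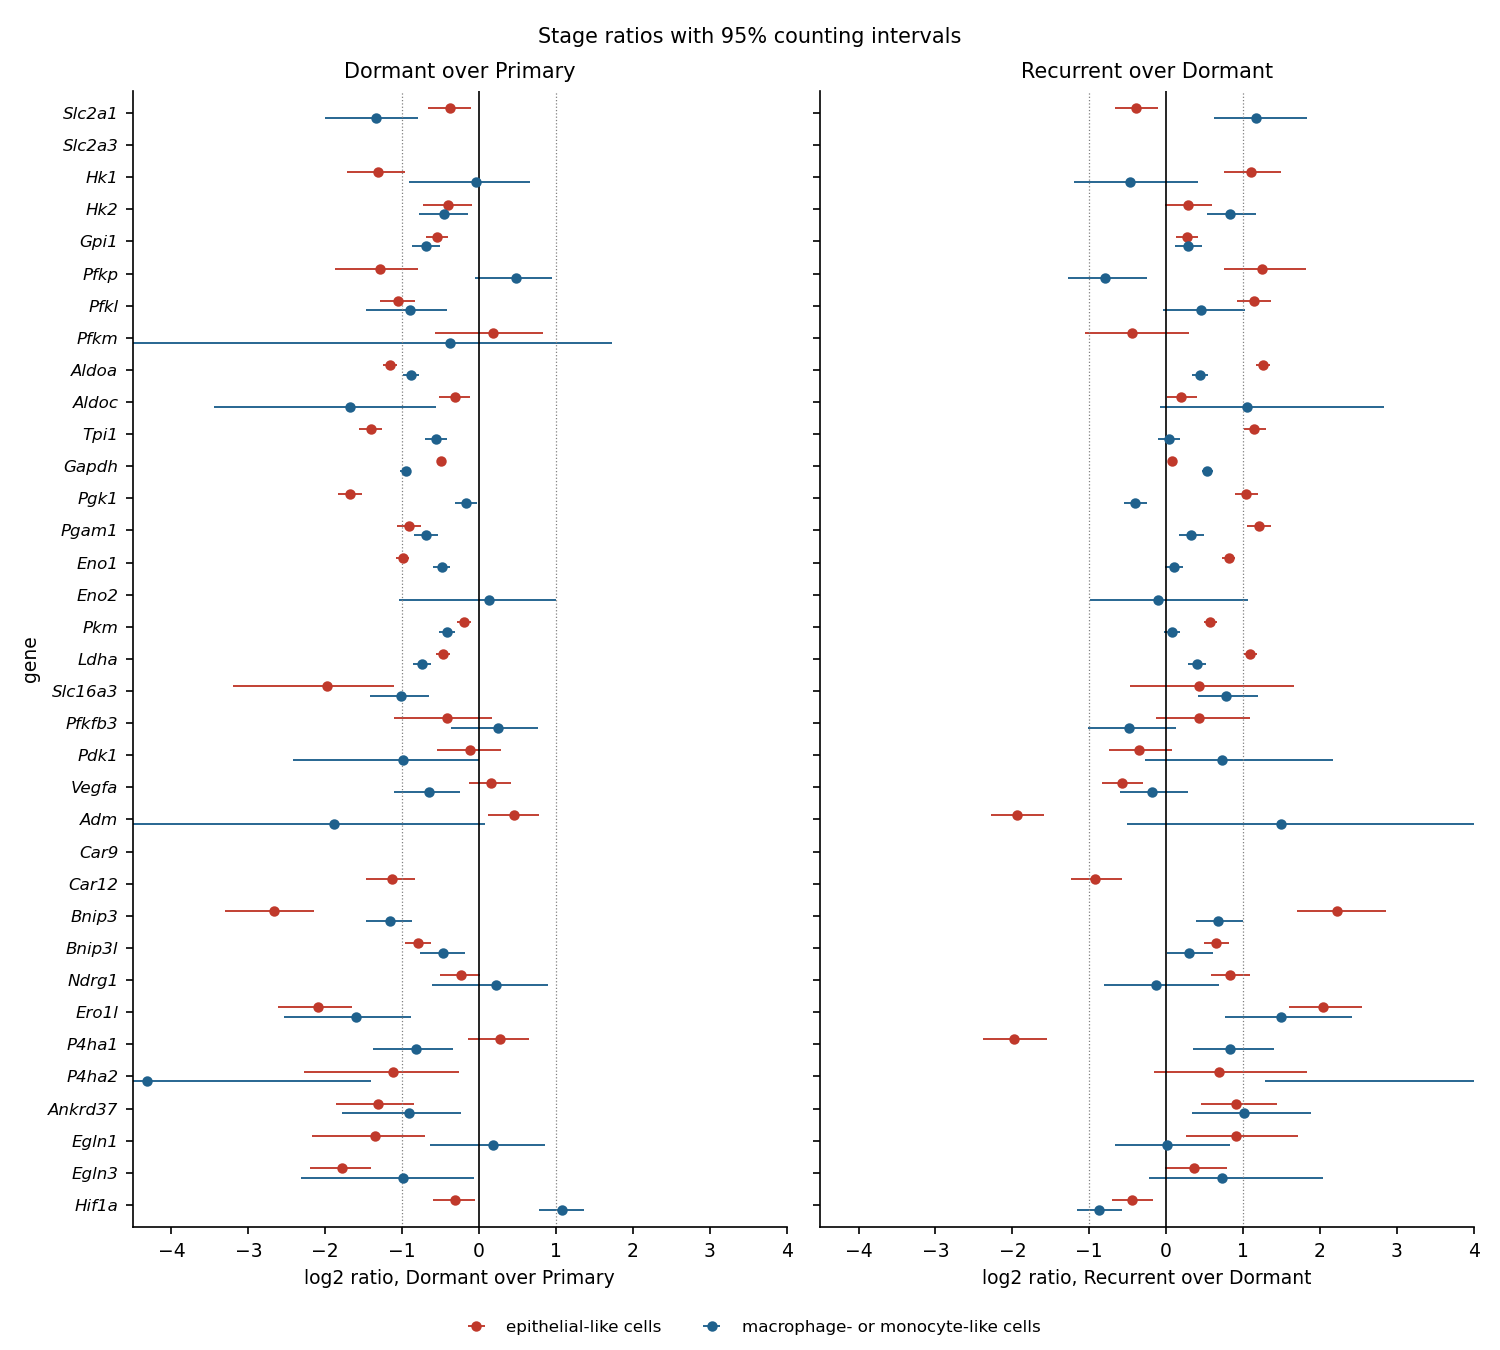
Log2 ratio of each gene (rows) for Dormant over Primary (left) and Recurrent over Dormant (right) in epithelial-like and macrophage- or monocyte-like cells, for genes with at least 20 UMIs over both libraries; bars are 95% counting intervals, dotted lines mark 2-fold, and bars and points beyond the axes are cut, among them the Recurrent over Dormant point of P4ha2 in macrophage-like cells, which had no Dormant UMI. Bnip3 and Ero1l of epithelial-like cells lie farthest left in the left panel, at -2.67 and -2.10, among genes with UMIs in both libraries.

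In macrophage- or monocyte-like cells the Dormant library was also lower than the Primary one. Of 32 members, 7 were at least 2-fold lower and 1 higher, against 10.1% and 11.8% of 9516 genes, and the median was -0.69 beside 0.05 over all genes. The 7 were P4ha2, Adm, Aldoc, Ero1l, Slc2a1, Bnip3 and Slc16a3.

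Gapdh was at 3173 CPM in Primary, 1636 CPM in Dormant, 921 CPM in Long-term dormant and 2368 CPM in Recurrent macrophage-like cells. Bnip3 was at 222, 99.0, 23.4 and 159, and Aldoa at 1493, 807, 402 and 1091. For each of these 3 genes the Primary level was the highest and the Long-term dormant level the lowest. Slc16a3 was at 126, 62.3, 33.3 and 108 CPM and Slc2a1 at 65.8, 25.5, 16.4 and 58.4, in the same order of libraries. P4ha2 had no UMI in the Dormant library, which allows up to 3.06 CPM, and 10.2 in the Primary library, so that it was at least 3.32-fold lower in Dormant cells by this floor of 3 UMIs per library. Hif1a was the exception, at 124 CPM in Dormant and 58.5 in Primary cells (log2 ratio 1.08, 0.78 to 1.36). Within single clusters the difference was smaller: Hif1a was at 144 CPM in Dormant and 168 in Primary cells of cluster 4 (-0.23, -0.77 to 0.35), and at 83.5 and 50.3 in cluster 8 (0.76, 0.10 to 1.31).

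In Recurrent against Primary macrophage-like cells, 1 of 33 members, Pfkm on 5 Recurrent and 19 Primary UMIs, was at least 2-fold lower. None was 2-fold higher, against 2.14% and 4.19% of 10210 genes, and the median was -0.31 beside 0.02. Counting intervals lay below 0 for 19 of 33 members and above 0 for 2, against 1455 and 1901 of 10210 genes. These counts are not a like background, because intervals narrow with UMI number and the members include abundant transcripts such as Gapdh. The glycolytic enzymes summed to 7789 CPM in Recurrent, 10280 in Primary and 6338 in Dormant cells. Against Dormant cells, 6 of 31 members were at least 2-fold higher in Recurrent cells and none lower, against 9.92% and 10.4% of 9427 genes, with a median of 0.40 beside -0.03. The 6 were P4ha2, Adm, Ero1l, Slc2a1, Aldoc and Ankrd37; P4ha2 was at least 3.07-fold higher by the same floor, and Adm rested on 1 Dormant UMI. In Long-term dormant against Dormant cells, 7 of 28 members were at least 2-fold lower and none higher, against 6.8% and 12.7% of 8778 genes, with a median of -0.56 beside 0.18. Bnip3 had the most negative ratio of these 7, -2.08 (-2.50 to -1.66); Pfkl, Pfkfb3, Tpi1, Eno1, Pgk1 and Aldoa were the others.

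The macrophage-like class was made of different clusters at each stage, and the differences were not alike among them. Cluster 3, led by Il1a and Il1b, held 657 of 1260 Primary and 901 of 1270 Recurrent cells. It held 5 Dormant and 2 Long-term dormant cells, too few to compare, so these Primary and Recurrent cells had no Dormant counterpart. Its glycolytic enzymes summed to 10152 CPM in Primary and 7623 in Recurrent cells. Cluster 4, led by Retnla and Ccl6, held 151 of 207 Dormant and 53 of 1260 Primary cells, and cluster 8, led by C1qa and Mmp12, held 51 Dormant and 547 Primary cells. Glycolytic enzymes summed to 7935 CPM in Dormant and 8182 in Primary cells of cluster 4, with overlapping counting intervals. In cluster 8 they summed to 3688 in Dormant and 10550 in Primary cells. The median member ratio was -0.24 in cluster 4, with 4 of 24 members at least 2-fold lower against 6.14% of 4025 genes, and -1.64 in cluster 8, with 22 of 31 against 18.9% of 8383 genes. Over all genes the median was -0.08 in cluster 4 and -0.16 in cluster 8. Bnip3 of cluster 8 was at 3.09 CPM in Dormant cells and 211 in Primary cells. That Dormant level was the lowest detected level of any member in these 51 cells, shared by several members, and rests on very few UMIs. In cluster 4 Bnip3 was at 154 in Dormant and 107 in Primary cells. The Recurrent over Dormant median likewise was -0.15 in cluster 4 and 1.42 in cluster 8. The Long-term dormant over Dormant median within cluster 4, which held 1193 of 1222 Long-term dormant cells, was -0.90, with 12 of 28 members at least 2-fold lower against 7.59% of 8541 genes.

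Depth and free RNA also differed among these cells. The median macrophage-like cell had 7318 UMIs in the Primary, 3953 in the Dormant, 2748 in the Long-term dormant and 6744 in the Recurrent library. An eGFP UMI was found in 11.6%, 3.38%, 0% and 19.0% of macrophage-like cells in this order, and the 14 luminal markers summed to 319, 144, 45.0 and 947 CPM in them. The 12 fibroblast markers summed to 3.05, 80.7, 913 and 27.4 CPM, with 2 of them at 0 in the Primary library. Dissociation stress genes summed to 12283 CPM in Dormant and 8388 in Primary macrophage-like cells, and proliferation genes to 210 and 365. Their part in the result was not tested.

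**Figure D4:**
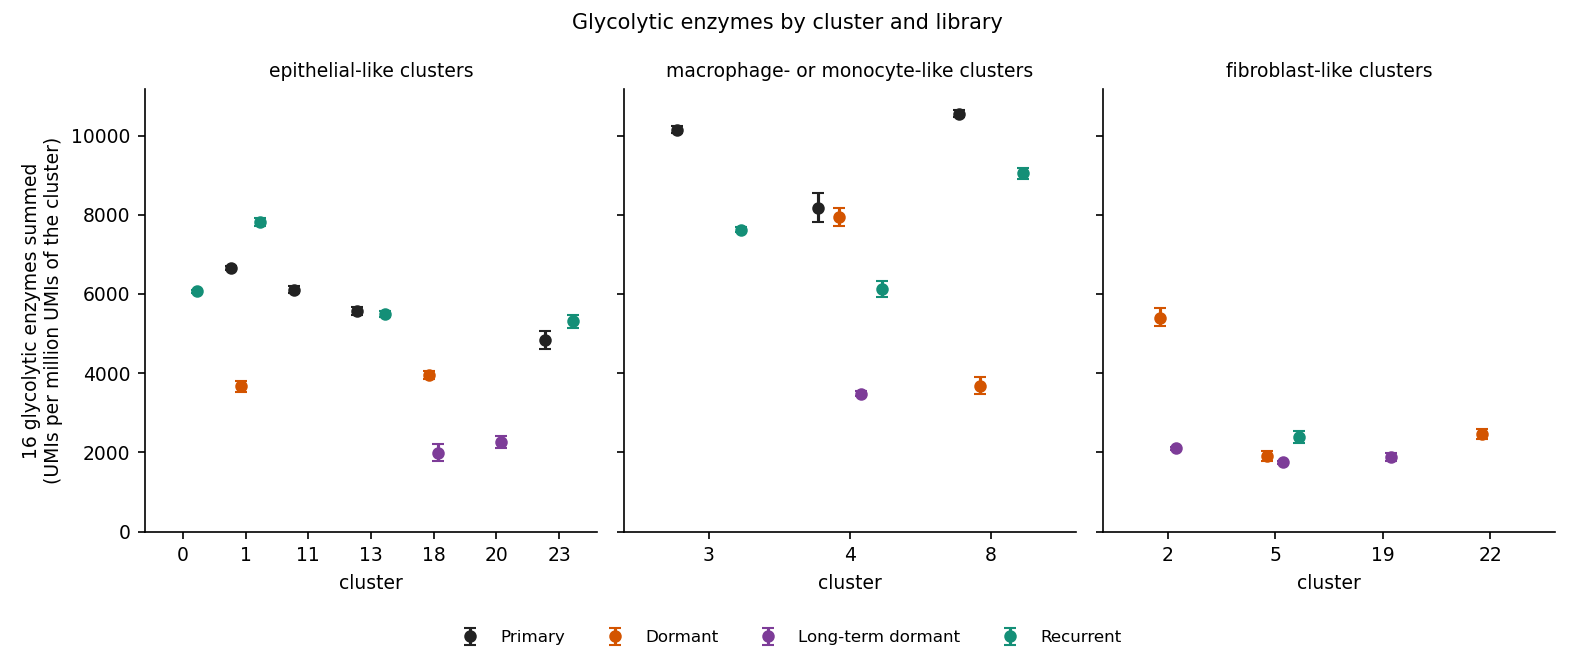
Sum of the 16 glycolytic enzymes (y axis, CPM, scaled within the cluster and library, linear from 0) in each cluster (x axis) with at least 50 cells of a library, by library; bars are exact 95% counting intervals. Cluster 8 of the macrophage-like class stands at 3688 in the Dormant library and at 10550 in the Primary library, while the values of cluster 4 are 7935 and 8182.

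Fibroblast-like cells could be compared in 3 libraries. In Long-term dormant against Dormant cells, 1 of 32 members was at least 2-fold higher and 7 lower, against 7.48% and 9.93% of 11204 genes, with a median of -0.53 beside -0.05. The 7 were Slc16a3, Slc2a1, Pfkl, Bnip3, Ldha, Eno1 and Aldoa. Ldha was at 484 CPM in Dormant, 179 in Long-term dormant and 365 in Recurrent fibroblast-like cells, and Slc16a3 at 27.3, 4.80 and 17.5. Over the whole class, Dormant levels were the highest of the 3 for both genes. Dormant Slc16a3 rested on 44 UMIs in 14 of 300 cells, 25% of them in 1 cell. It was at 86.5 CPM in Dormant cells of cluster 2 and at 2.11 in those of cluster 5. In cluster 5 Ldha was at 197 CPM in Dormant, 132 in Long-term dormant and 267 in Recurrent cells. The clusters differed between these libraries. Cluster 22, led by Crabp1 and Apod, held 129 of 300 Dormant, 2 Long-term dormant and no Recurrent fibroblast-like cells. In cluster 5 alone, led by Pi16, 2 of 28 members were at least 2-fold higher in Long-term dormant than in Dormant cells and 2 lower, against 9.24% and 6.01% of 9196 genes. In cluster 2 alone, led by collagen genes, 2 of 31 were higher and 13 lower, against 13.0% and 10.2% of 10113 genes. Dissociation stress genes summed to 12259 CPM in Long-term dormant and 17175 in Dormant fibroblast-like cells, and the 17 macrophage markers to 1498 and 3131; the part of these measures in the result was not tested.

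Hk2 stood apart from the rest of the pathway in these cells. It was at 131 CPM in Dormant, 373 in Long-term dormant and 404 in Recurrent fibroblast-like cells, while Hk1 was at 18.6, 26.4 and 18.8. The log2 ratio for Hk2 was 1.5 (1.30 to 1.71) in Long-term dormant over Dormant cells and 1.62 (1.36 to 1.88) in Recurrent over Dormant cells. Hk2 made up 87.6% of hexokinase UMIs in Dormant, 93.4% in Long-term dormant and 95.6% in Recurrent fibroblast-like cells, but 44.2% in Primary, 48.4% in Long-term dormant and 45.9% in Recurrent epithelial-like cells, and 96 of 160 hexokinase UMIs in Dormant ones. Macrophage-like clusters also held more Hk2 than Hk1. In cluster 3 these were at 136 and 18.7 CPM in Primary cells and at 189 and 11.4 in Recurrent cells. In cluster 4 they were at 94.1 and 21.1 in Dormant cells and at 65.7 and 18.7 in Long-term dormant cells. Counts of different genes were set side by side without a length correction because the kit tags only the 3′ end of each transcript.

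Adm was at 107 CPM in Dormant, 62.6 in Long-term dormant and 278 in Recurrent fibroblast-like cells. In Recurrent over Dormant cells, Adm (1.38, 1.08 to 1.68) and Hk2 were the 2 of 26 members at least 2-fold higher, and Eno2, Slc2a1 and Vegfa were the 3 lower, against 5.64% and 10.8% of 7805 genes, with a median of -0.19 beside -0.02. In Recurrent over Long-term dormant cells, 6 of 32 were higher and 3 lower, against 5.78% and 9.72% of 11010 genes, with a median of 0.26 beside 0.02. The 6 were Adm, Slc16a3, Pfkl, Bnip3, Eno1 and Ldha. Slc16a3 rested on 13 Recurrent UMIs in 3 of 104 cells, 61.5% of them in 1 cell, Pfkl on 16 UMIs with 31.2% in 1 cell and Bnip3 on 39 with 33.3% in 1 cell. The 3 lower ones were Eno2, on 2 Recurrent UMIs, and Slc2a3 and Car12, which had no Recurrent UMI, where a count of 0 allows more than the Long-term dormant level. The 104 Recurrent cells carried luminal markers at 1402 CPM and an eGFP UMI in 19.2% of cells, against 366 and 3.00% in Dormant cells and 83.9 and 0.21% in Long-term dormant cells. Within cluster 5 the median ratio was -0.14 in Long-term dormant over Dormant cells and 0.23 in Recurrent over Dormant cells. In cluster 2 the Long-term dormant over Dormant median was -0.91 on 1595 and 66 cells.

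The classes were also compared with each other within libraries, by summed counts in edgeR's quasi-likelihood test with library as a term, which treats the stages as replicates of a class difference. The p-values therefore measure spread among stages. Between macrophage-like and epithelial-like cells over 4 libraries, 17 of 33 members were higher and 8 lower in macrophage-like cells at a Benjamini-Hochberg adjusted p below 0.05, against 21.3% and 21.5% of 10913 genes. The member median was 0.77 on the log2 scale, beside -0.05 over all genes.

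The genes higher in macrophage-like cells were 11 of the 16 glycolytic enzymes (Hk2, Gpi1, Aldoa, Tpi1, Gapdh, Pgk1, Pgam1, Eno1, Eno2, Pkm and Ldha), the transport and regulator genes Slc16a3 and Pfkfb3, and the hypoxia response genes Bnip3, P4ha1, Egln1 and Hif1a. Slc16a3 had the largest fold (log2 4.46, SE 0.38, edgeR adjusted p = 0.000389) and was higher in 4 of 4 libraries. Bnip3 was higher by a log2 fold of 2.28 (SE 0.40, edgeR adjusted p = 0.00502), also in 4 of 4 libraries, with 3.17 in the Dormant and 0.64 in the Long-term dormant library. Hk2 was higher by 1.75, Gapdh by 1.14 and Pkm by 1.10, each in 4 of 4 libraries. These whole-class values mix clusters. Dormant macrophage-like Bnip3 was at 154 CPM in cluster 4 and at 3.09 in cluster 8, the latter below the Dormant epithelial-like level. Glycolytic enzymes summed to 3688 CPM in Dormant cells of cluster 8, beside 3731 in Dormant epithelial-like cells. Of the Long-term dormant epithelial-like cells, only 1.85% had an eGFP UMI. The unfitted log2 ratio of Eno1 was below 0 in 2 of 4 libraries, at -0.21 in the Recurrent one, and that of Ldha was -0.13 in the Recurrent library, and both calls were lost with library-size scaling.

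The 8 genes lower in macrophage-like cells were Car12 (log2 fold -5.31, SE 0.37, edgeR adjusted p = 0.000223), Aldoc, Pfkm, Adm, Ndrg1, Egln3, Hk1 and Pfkl. The isoenzymes thus differed in opposite directions: Aldoa was higher and Aldoc, the aldolase best known from brain, lower by -2.95, and Hk2 was higher and Hk1 lower by -1.13. Under each of 6 alternative fits, 8 of the 17 higher calls (Bnip3, Eno2, Gapdh, Gpi1, Hk2, Pgam1, Pkm and Slc16a3) and 3 of the 8 lower calls (Aldoc, Car12 and Ndrg1) were kept. With library-size scaling in place of TMM factors, Egln1, Eno1, Hif1a, Ldha, Pfkfb3 and Pgk1 lost their calls and the median of all genes lay at -0.43. Without the Primary library, 11 members were higher and 4 lower.

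**Figure D5:**
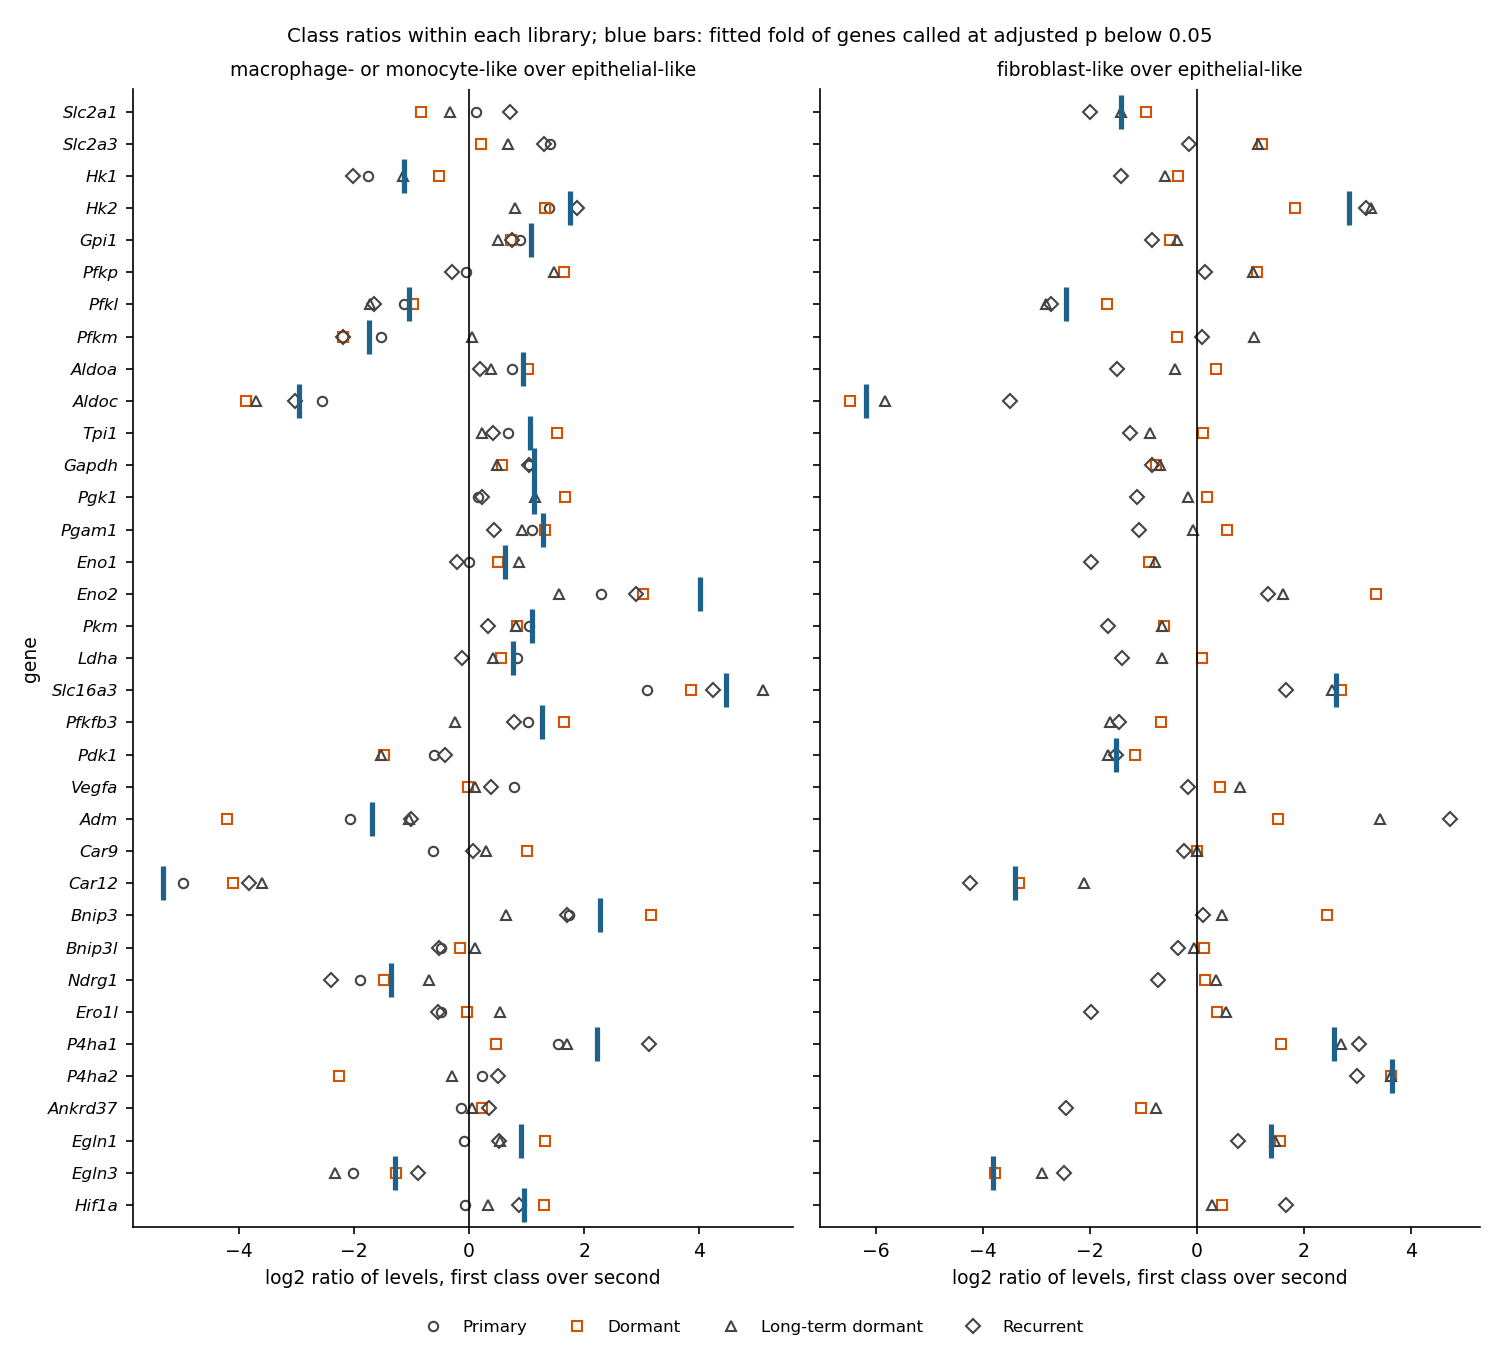
Log2 ratio of each gene (rows) between classes within each library (points, one per library, Dormant as orange squares) for macrophage- or monocyte-like over epithelial-like (left) and fibroblast-like over epithelial-like cells (right); blue bars mark the fitted edgeR fold of genes with an adjusted p below 0.05. Slc16a3 lies right of 0 in all 4 libraries in the left panel, with a fitted log2 fold of 4.46, and P4ha2 lies right of 0 in all 3 libraries in the right panel, at 3.65.

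Between fibroblast-like and epithelial-like cells over 3 libraries, 5 of 32 members were higher and 6 lower in fibroblast-like cells, against 11.4% and 8.06% of 9807 genes, with a median of -0.37 beside -0.03. P4ha2 (log2 fold 3.65, SE 0.26, edgeR adjusted p = 0.0109), P4ha1, Hk2, Slc16a3 and Egln1 were higher. Fibroblast-like Slc16a3 rested on few cells, with 44 UMIs in 14 of 300 Dormant cells and 13 UMIs in 3 of 104 Recurrent cells. In fibroblast-like cluster 5 it was at 2.11 CPM in Dormant, 1.53 in Long-term dormant and 0 in Recurrent cells. The Dormant and Recurrent values, but not the Long-term dormant one, lay below the epithelial-like level. P4ha1 and P4ha2 encode the enzymes that hydroxylate collagen, the main product of fibroblasts. Aldoc, Egln3, Car12, Pfkl, Pdk1 and Slc2a1 were lower. Adm had a log2 fold of 3.41 but a wide error (SE 0.82, edgeR adjusted p = 0.052), with ratios of 1.53 in the Dormant, 3.43 in the Long-term dormant and 4.73 in the Recurrent library. These counts were unstable: without the Long-term dormant library 1 member was higher and 0 lower, without the Dormant library 4 and 1, and without the Recurrent library 9 and 8. P4ha2 alone was called in each of 5 alternative fits.

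Between fibroblast-like and macrophage-like cells, 4 of 32 members were higher and 16 lower in fibroblast-like cells, against 21.7% and 18.7% of 9994 genes, with a median of -1.11 beside -0.01. Adm (log2 fold 5.52, SE 0.29, edgeR adjusted p = 0.00024), P4ha2, Pfkm and Ndrg1 were higher. The 16 lower genes were 11 glycolytic enzymes (Aldoc, Pkm, Eno1, Gapdh, Tpi1, Pgk1, Gpi1, Pgam1, Aldoa, Pfkl and Ldha), 3 transport and regulator genes (Slc16a3, Pfkfb3 and Slc2a1), Egln3 and Ankrd37. Pkm was lower by -1.86 (SE 0.24, edgeR adjusted p = 0.00183) and Eno1 by -1.83 (SE 0.21, edgeR adjusted p = 0.00115), each in 3 of 3 libraries. Without the Dormant library, 10 members were lower. In each of 5 alternative fits, 8 of the 16 lower calls were kept (Eno1, Gapdh, Pfkfb3, Pgam1, Pgk1, Pkm, Slc16a3 and Tpi1). So were 3 of the 4 higher calls (Adm, Ndrg1 and P4ha2). Vegfa was called in none of the 3 class tests, with levels of 46.2, 51.4, 33.0 and 34.5 CPM in epithelial-like and 80.7, 51.1, 35.4 and 45.2 in macrophage-like cells by stage, and 70.1 in Dormant, 58.6 in Long-term dormant and 30.9 in Recurrent fibroblast-like cells.

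The make-up of paired family members differed with stage as well as class. Bnip3 took 59.8% of Bnip3 and Bnip3l UMIs in Primary cells, 48.0% in Dormant cells, 15.7% in Long-term dormant and 54.7% in Recurrent macrophage-like cells. In fibroblast-like cells the share was 30.8% in Dormant, 15.6% in Long-term dormant and 26.0% in Recurrent cells. Egln3 took 80.3%, 75.7%, 56.2% and 67.7% of Egln1 and Egln3 UMIs in epithelial-like cells by stage, and 50.9%, 30.8%, 9.84% and 42.9% in macrophage-like cells. The Long-term dormant library had the lowest share of Egln3 and, except in epithelial-like cells, of Bnip3. Pfkl took 76.8% to 80.9% of phosphofructokinase UMIs in epithelial-like cells of the 4 libraries, and 67.5%, 45.2%, 28.1% and 66.3% in macrophage-like cells by stage.

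Among 32 other genes of the hypoxia and HIF pathway, differences of at least 2-fold over the whole class went both ways. In Dormant against Primary epithelial-like cells, 7 of 29 with at least 20 UMIs were at least 2-fold higher and 5 lower. Over all 11644 genes these shares were 13.0% and 10.1%. The median was -0.24 beside -0.07. Counting intervals lay above 0 for 7 of the 29 and below 0 for 14, against 2571 and 3054 of all genes. Values within single clusters are not given for this list. Stc2, a secreted glycoprotein, was at 79.8 CPM in Dormant and 12.2 in Primary cells, and Epas1, which encodes HIF-2 alpha, at 22.5 and 2.68. Ak4, a mitochondrial adenylate kinase, was at 1.12 in Dormant and 12.2 in Primary cells. In macrophage-like cells, 5 of 24 were higher and 3 lower in Dormant than in Primary cells, against 11.8% and 10.1% of 9516 genes. Hilpda, a lipid-droplet protein gene, was at 815 CPM in Dormant and 250 in Primary macrophage-like cells. Mif, a cytokine gene, was at 674 and 1627. In Recurrent over Primary epithelial-like cells, Ddit4, an inhibitor of mTORC1 signalling, was at 32.5 in Recurrent and 130.0 in Primary cells. Of 40 other glycolysis and pyruvate genes, 3 of 27 were higher and 4 lower in Dormant than in Primary epithelial-like cells. The shares over all genes were again 13.0% and 10.1%, and the median was -0.01 beside -0.07. Hk3, a hexokinase of myeloid cells, was higher in macrophage-like than epithelial-like cells by a log2 fold of 7.08 (SE 0.39, edgeR adjusted p = 0.000138), and Ldhb, the other main lactate dehydrogenase subunit, lower by -2.90. Between these classes 9 of 29 genes of this list were higher and 8 lower, and 7 and 5 of 27 of the other hypoxia genes. Over all 10913 genes tested the shares were 21.3% and 21.5%.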

How the data were processed

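The table analysed holds UMI counts per gene and cell, which the authors deposited as raw counts for 4 stage libraries; 0 columns belonged to no sample. Reads were processed with Cell Ranger 3.1.0 and FastQC against mm10, per the submitters' processing notes; other settings are not given in the sources used here. The 2 antibody-arm libraries were not analysed here. The members and lists were chosen with earlier results of these data known. Deposited cells numbered 4925 in the Primary, 3541 in the Dormant, 6083 in the Long-term dormant and 5119 in the Recurrent library, with 14185689 to 41259292 UMIs per library.

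Cells were kept at 500 or more UMIs, 200 or more genes and at most 20% mitochondrial UMIs. Scrublet predicted 53 Primary, 0 Dormant, 137 Long-term dormant and 57 Recurrent doublets, which were removed. Scanpy 1.11.5 with Leiden clustering (leidenalg 0.10.2, resolution 1, 30 components, 15 neighbours) used 2000 variable genes less 20 hypoxia or glycolysis genes. A cluster took a class name only with at least 3 markers found in 5% of its cells, a limit set after the clusters were seen. UMIs were summed per class and library and given as CPM, counts scaled to a total of 1000000 UMIs. Stage ratios (0.5 UMIs added) were counted as different at 2-fold, among genes with 20 or more UMIs in the 2 libraries together, with exact 95% Poisson or conditional intervals. Class differences were tested by edgeR 4.0.16 in R 4.3.3, with TMM factors, library as a term and Benjamini-Hochberg adjustment over all genes tested; the library pairs the classes, since both come from the same tissue. DESeq2 1.42.0 was an alternative. The procedures were tested on simulated data. All 35 members could be named; of the other lists, the 4 largest and 4 smallest ratios per comparison, and the 4 largest called folds each way per class test. Alternatives covered cell filters, doublets, cluster resolution, scaling, UMI minimum, fold, cluster weights, free-RNA candidates and each library left out.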

Additional observations from a re-analysis of the deposited data

Results flagged for a closer look

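Some members lay on opposite sides of 0 in different classes of the same libraries, with a counting interval that left out 0; the difference between classes was not tested, as each stage has 1 library. In Recurrent over Dormant cells, Adm had a log2 ratio of -1.94 in epithelial-like and 1.38 in fibroblast-like cells. In epithelial-like cluster 1 alone, however, Adm was at 0.57 (95% interval -0.19 to 1.51). Aldoa was at 1.26 in epithelial-like, 0.43 in macrophage-like and -0.60 in fibroblast-like cells, Ldha at 1.09, 0.40 and -0.41, and Pgam1 at 1.20, 0.33 and -0.45 in the same order of classes. Slc2a1 was at -0.40, 1.17 and -1.45 in that order, but at 0.71 (0.13 to 1.39) in epithelial-like cluster 1 alone. P4ha1 was at -1.98 in epithelial-like and 0.83 in macrophage-like cells, and its epithelial-like value in cluster 1 alone was 1.52 (0.23 to 3.61), on the other side of 0. Pfkp was at 1.24 and -0.79, and Pgk1 at 1.04 and -0.40, in these 2 classes. In macrophage-like clusters 4 and 8 alone, Pfkp was at 0.25 and -0.97, Pgk1 at -0.93 and 1.76, Aldoa at -0.37 and 1.40, Ldha at -0.14 and 0.99, and Pgam1 at -0.26 and 1.58. In fibroblast-like cluster 5 alone, Ldha was at 0.44, Aldoa at -0.10 and Pgam1 at -0.55. In Dormant over Primary cells, Hif1a was at -0.31 in epithelial-like and 1.08 in macrophage-like cells, with -0.23 in cluster 4 and 0.76 in cluster 8 of the macrophage-like cells and 0.06 in epithelial-like cluster 1. In Long-term dormant over Dormant cells, Hk2 was at 1.5 in fibroblast-like and -0.47 in macrophage-like cells, with 1.86 in cluster 5 and 1.69 in cluster 2 of the fibroblast-like cells and -0.53 in macrophage-like cluster 4.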

How the results depend on the processing

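Of the alternative values of the 11 stage medians, 138 lay within a range set by the 95% counting limits of the single genes. This range ran from the median of the lower limits to the median of the upper limits. It is not a confidence interval of the median. Outside this range lay 9 values counted as moved and 1 counted as reversed. The sign changed in 3 medians, each within a single cluster. The Recurrent over Primary median of epithelial-like cells (-0.28) was -0.17 with TMM factors, -0.039 with clusters of equal weight, 0.23 in cluster 1, -0.19 in cluster 13 and -0.012 in cluster 23. The Recurrent over Dormant median of these cells (0.61) was 1.19 in cluster 1. In macrophage-like cells the Dormant over Primary median (-0.69) was -0.24 in cluster 4 and -1.64 in cluster 8, and the Recurrent over Dormant median (0.40) was -0.15 and 1.42. The Recurrent over Dormant median of fibroblast-like cells (-0.19) was 0.23 in cluster 5. The values per cluster were chosen after seeing the data, as was library-size scaling. Of 318 stage counts of members, 61 moved past 1.5 times. The Dormant over Primary count of epithelial-like cells lay between 11 and 17 lower and at 0 higher under all 16 alternatives.

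For the class tests, the count higher in macrophage-like than epithelial-like cells (17) was 11 with no replicate block, which drops the pairing by library, 11 with library-size scaling and 11 to 17 with 1 library left out; the lower count (8) was 4 to 8. Between fibroblast-like and epithelial-like cells, leaving out 1 library gave 1 to 9 higher and 0 to 8 lower, and between fibroblast-like and macrophage-like cells 3 to 5 higher and 10 to 15 lower. The cause of these changes was not tested. No paired analysis was possible for the stage comparisons because each stage has 1 library, and leaving one out leaves no comparison. Depth was lowest in Recurrent fibroblast-like cells, at 744633 UMIs, and Long-term dormant epithelial-like cells, at 817746.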

Other observations

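T- or NK-like and dendritic-like cells carried the 35 genes at lower sums than macrophage-like cells of the same library. Epithelial-like cells, at 4251 CPM in the Dormant library, were near the T- or NK-like cells there. In the Long-term dormant library epithelial-like cells, at 2844, were below them. T- or NK-like cells held 4595 CPM in the Primary, 4254 in the Dormant, 3320 in the Long-term dormant and 3802 in the Recurrent library. Dendritic-like cells held 4796, 3249, 2648 and 4038 in the same order. In both classes the Long-term dormant library was the lowest.

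The glycolytic enzymes also varied among cells of a class. With each cell thinned to 1000 UMIs, 2094 Primary epithelial-like cells had a median of 5 glycolytic UMIs, with 2 to 12 between the 10th and 90th percentile and a variance 3.76 times the mean. The 302 Dormant cells had a median of 3 and a variance 1.55 times the mean, the 157 Long-term dormant cells 2 and 1.35, and the 2635 Recurrent cells 5 and 3.27. Between 2 and 22 epithelial-like cells per library were too shallow to thin. In macrophage-like cells this ratio was 5.68 in the Primary, 5.74 in the Dormant, 1.87 in the Long-term dormant and 5.65 in the Recurrent library, where 3, 21, 153 and 8 cells were too shallow. Unthinned sums stood at 10280, 6338, 3489 and 7789 CPM there.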
